A study of Arabidopsis thaliana with 12 samples.

Results

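Among the 32399 genes in the deposited tables, 24 were measured almost only in the apical cell of the early embryo. They were chosen by a mean of at least 10 FPKM in the apical cell and below 1 FPKM in each of the other 3 groups. FPKM is a level of fragments scaled to both the length of the transcript and the size of the library. Because the choice used the mean of all libraries in every group, the difference between the apical cell and the other groups is a description, and calls on it are counted but support nothing.

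The libraries came from untreated Arabidopsis thaliana of the Columbia-0 ecotype. The apical cell (AC) and basal cell (BC) were taken from embryos that the labels call 2-celled, and the embryo proper (32E) and suspensor (32S) from embryos at the 32-cell stage, with 3 libraries in each group described as independent replicates. All 4 groups shared the same handling: seeds were treated with enzymes that loosen the wall, embryos were freed with needles, the domains were cut apart by laser microdissection, a small number of cells was pooled for each library, and mRNA was amplified with a SMART-Seq kit.

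The zygote of Arabidopsis divides asymmetrically. The small apical daughter gives rise to most of the embryo, and the basal daughter gives rise to the suspensor, a file of cells that anchors and feeds the embryo. The apical cell divides again soon, and division in plants needs the anaphase-promoting complex, which is switched on by CDC20 proteins, and syntaxins and dynamins that build the new cell plate from vesicles. A gene of the CDC20 family, a syntaxin gene and a dynamin-related gene are among the 24. Their part in division was not tested.

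Across libraries the FPKM sum was 833418 to 955228, and 13034 to 15322 genes were above 1 FPKM. The paper gives the read pairs of each library, but the tables hold no counts per gene. The number of reads behind each value is thus unknown, and zeros are called listed at 0. Of 10 listed basal cell and suspensor genes 8 were tested. WOX8, WOX9, PIN7 and WRKY2, 4 of them, were lower in AC than in BC, while YDA, IAA10, HDG11 and HDG12 did not pass. Of 18 embryo proper patterning genes, all tested, 4 were higher in AC than in BC (DRN, HAN, IAA12 and PHB). Another 4 were lower (PDF2, MP, PLT1 and PLT2), and WOX2, at 113 ± 11.1 FPKM in AC and 158 ± 9.93 in BC, did not pass. Of all tested genes, 19.0% were higher and 18.4% lower in AC than in BC, near the split of the patterning genes. The homeobox genes WOX8 and WOX9 were at 8.45 ± 1.25 and 0.537 ± 0.775 FPKM in AC and at 350.04 ± 22.0 and 633 ± 24.8 FPKM in BC (SD, n = 3 each). The summed FPKM of 10 endosperm genes was 2.13 to 6.73 in AC and 0 to 0.28 in BC. At the later stage it was 0.06 to 0.51 in 32E and 0.18 to 1.64 in 32S. In AC 7 of the 10 were listed at 0, among them the MADS-box genes AGL62 and PHE1. FWA, the only endosperm gene tested, was at 1.99 ± 0.986 FPKM in AC, 0.0833 ± 0.0493 in 32E and 0 in BC and 32S (SD, n = 3 each). It was called higher in AC in each comparison. IKU2 was at 1.39 ± 1.83 FPKM in AC and listed at 0 elsewhere. FIS2 was at 0.323 ± 0.134 FPKM in AC and at most 0.0933 elsewhere. For 12 seed coat genes the sum was 8.89 to 18.1 in AC and 23.8 to 28.4 in BC. At the later stage it was 34.5 to 46.2 in 32E and 4.62 to 11.7 in 32S. BAN, TT10, TT8 and TT16 were listed at 0 in AC, and the highest there were MUM4 at 8.05 ± 1.94 FPKM and STK at 2.52 ± 4.36. For 6 egg cell and synergid genes it was 21.5 to 32.8 in AC, against 21.6 to 29.2 in BC and, at the later stage, 1.8 to 3.51 in 32E and 0.20 to 0.65 in 32S, and in AC nearly all of it came from EC1.5, while EC1.2, EC1.3, EC1.4 and MYB98 were listed at 0 in AC. For 14 pollen and sperm genes it was 5.77 to 8.45 in AC and 18.9 to 19.5 in BC. At the later stage it was 4.01 to 9.61 in 32E and 136 to 185 in 32S. Nearly all of the 32S sum came from VEX1 (151 ± 26.4 FPKM), and most of the AC sum from HAP2 (5.99 ± 1.91). The part of these other cell types in the levels of the 24 genes was not tested. In pooled samples, fewer cells holding a transcript and less of it in each cell cannot be told apart.

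The 24 genes were present at modest levels in AC. Their mean FPKM ran from 10.24 to 32.8 with a median of 12.9, while the highest mean of any gene in AC was 5144. Only 3 of them exceeded 20 FPKM, and 20 lay between 10 and 15. Of the 9903 genes with a mean of at least 10 FPKM in AC, 395 were below 1 FPKM in BC, 159 in 32E and 455 in 32S. Both BC and 32S were below 1 FPKM for 104 genes, both BC and 32E for 45, and both 32E and 32S for 57. Meeting all 3 conditions left 0.242% of the genes measured in AC. The same rule turned to each of the other groups gave 56 genes for BC, 92 for 32E and 226 for 32S. The highest mean among these was 122 FPKM in BC, 259 FPKM in 32E and 2373 FPKM in 32S, against 32.8 FPKM in AC.

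**Figure D1:**
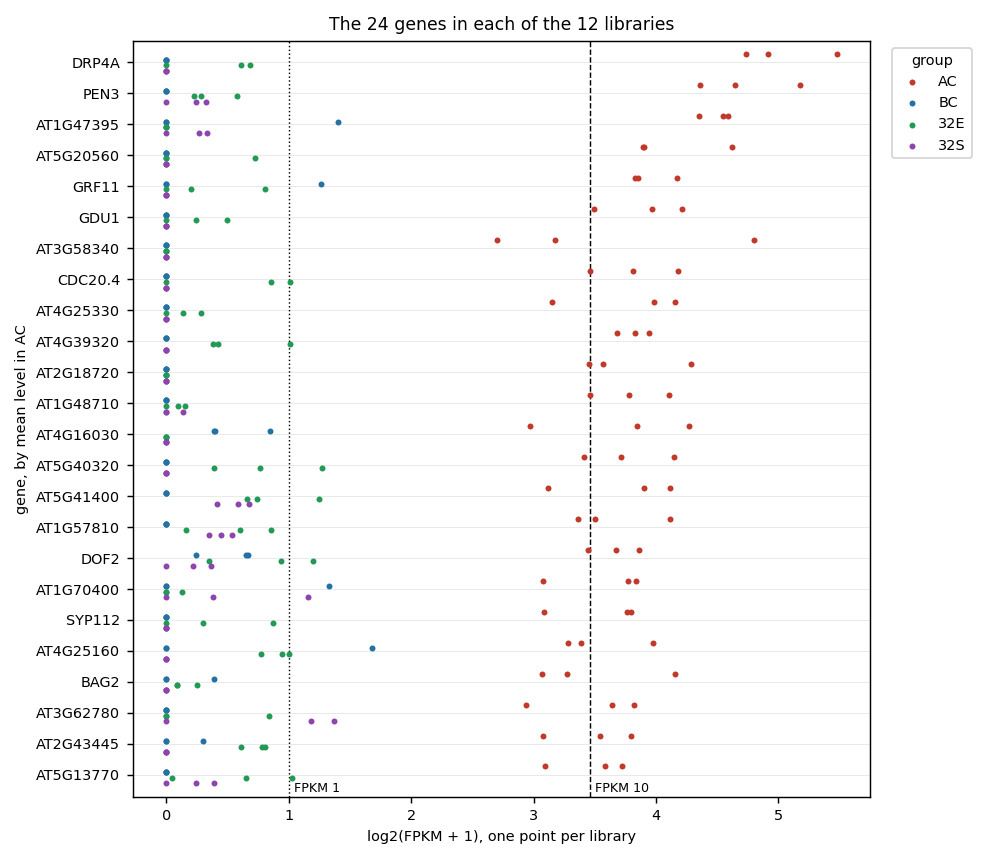
Each of the 24 genes in each library, as log2(FPKM + 1) on the horizontal axis, with AC in red, BC in blue, 32E in green and 32S in purple; the dashed line marks 10 FPKM and the dotted line 1 FPKM. AC values lie between 5.49 and 43.49 FPKM and all other values between 0 and 2.21 FPKM, so AC does not overlap the other groups for any gene. The choice made this likely, and 13.3% of the 17060 genes tested also had every AC library above all others.

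DRP4A (AT1G60530, chr1:22299797-22301167 on the plus strand, TAIR10.1) had the highest level in AC. It encodes a protein with the GTPase domain of dynamins, large GTPases that pinch and shape membranes. Its FPKM was 29.14, 25.66 and 43.49 in the AC libraries, 0 in all 3 BC libraries, 0.61, 0.53 and 0 in 32E, and 0 in all 3 32S libraries. The lowest AC library was thus far above the highest library of any other group. The gene has 2 exons and an open reading frame for 301 residues, and the long noncoding RNA gene AT1G60525 lies across its whole length of 1371 bases on the opposite strand. AT1G60525 was listed at 5.997 FPKM in AC, against 9.84 in BC, 6.08 in 32E and 6.007 in 32S, without the AC pattern. The sources used here do not say that the libraries kept strand, and reads of the 2 genes cannot be told apart without it.

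SYP112 (AT2G18260, chr2:7941778-7943388, plus strand) encodes a syntaxin, a SNARE protein of vesicle fusion, from the group that includes the cytokinesis syntaxin KNOLLE. It had 7.51, 12.89 and 12.57 FPKM in AC, 0 in every BC and 32S library, and 0.83, 0.23 and 0 FPKM in 32E. CDC20.4 (AT5G26900, chr5:9463752-9465086, plus strand) encodes a WD40-repeat protein of the CDC20 family and has no intron. Its FPKM was 10, 17.12 and 13.01 in AC, 0 in every BC and 32S library, and 0, 0.81 and 1.01 in 32E. AT4G39320 (chr4:18288770-18290010, plus strand), annotated as a microtubule-associated protein-like gene, had 11.81, 14.39 and 13.21 FPKM in AC, 0 in every BC and 32S library, and 0.34, 0.30 and 1.01 FPKM in 32E. For these 3 genes with names linked to division, 32E was the only other group with a value above 0. The same held for DRP4A, GDU1, AT4G25330, AT5G20560 and AT5G40320, so it was not particular to these 3.

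PEN3 (AT1G59870, chr1:22034423-22040126, plus strand) had the second highest level. It encodes a plasma membrane ABC transporter of the pleiotropic drug resistance type that is known for defence against fungal entry in leaves. Its FPKM was 24.06, 19.53 and 35.16 in AC, 0 in all BC libraries, 0.17, 0.49 and 0.22 in 32E, and 0.18, 0 and 0.25 in 32S. GDU1 (AT4G31730, chr4:15361012-15362074, plus strand) encodes a small membrane protein that raises amino acid export when it is overproduced. It had 17.54, 10.27 and 14.64 FPKM in AC, 0 in every BC and 32S library, and 0.41, 0.18 and 0 FPKM in 32E. Neither gene had any library outside AC above 0.5 FPKM.

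GRF11 (AT1G34760, chr1:12743722-12745748, minus strand) encodes a 14-3-3 protein, a binder of phosphorylated partners. It had 17.05, 13.21 and 13.43 FPKM in AC, against 0, 0 and 1.4 FPKM in BC, 0.15, 0 and 0.75 FPKM in 32E, and 0 in every 32S library. BAG2 (AT5G62100, chr5:24940203-24942003, plus strand), of a family of co-chaperones that bind heat shock proteins, had 7.38, 16.8 and 8.66 FPKM in AC, against 0, 0.31 and 0 in BC, 0.19, 0.06 and 0.06 in 32E, and 0 in 32S. In BAG2 a single AC library carried the mean over the minimum, because the other 2 were below 10 FPKM. AT3G58340 (chr3:21589071-21590401, minus strand), a TRAF-like gene, showed this more strongly. It had 5.49, 26.85 and 8.05 FPKM in AC and was listed at 0 in all 9 other libraries. Genes for protein turnover made up a further 3: the RING/U-box gene AT5G41400 at 12.65 ± 4.47 FPKM in AC, the U-box kinase gene AT4G25160 at 10.96 ± 3.25, and the F-box gene AT2G43445 at 10.3 ± 2.75 (SD, n = 3 each). AT4G25160 held the highest value outside AC of all 24 genes, with 0, 0 and 2.21 FPKM in BC, 0.71, 1.00 and 0.93 FPKM in 32E and 0 in 32S, against 9.46, 8.73 and 14.69 FPKM in AC.

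DOF2 (AT3G21270, chr3:7474544-7475903, plus strand) was the only gene of the 24 in the transcription factor families of the study, where 405 of 9858 other genes with at least 10 FPKM in AC (4.11%) belonged to one. Dof proteins are DNA-binding factors found in plants, with a zinc finger that binds AAAG. DOF2 had 9.91, 11.74 and 13.54 FPKM in AC, against 0.57, 0.18 and 0.59 in BC, 1.29, 0.91 and 0.27 in 32E, and 0, 0.29 and 0.16 in 32S. Of the 24, only DOF2 had values above 0 in every BC and 32E library. AT4G25330 (chr4:12957834-12958791, plus strand), with a SAWADEE domain known from chromatin-binding proteins, had 16.85, 7.90 and 14.82 FPKM in AC, against 0 in BC and 32S, and 0.22, 0.10 and 0 in 32E. AT1G70400, with the NOSIC domain of proteins that bind small nuclear and nucleolar RNAs, was at 11.13 ± 3.19 FPKM in AC (SD, n = 3). AT2G18720 (chr2:8114785-8117085, minus strand), of the family of translation factors EF1A and IF2gamma, had 10.83, 9.97 and 18.53 FPKM in AC and was listed at 0 in all 9 other libraries. AT4G16030, annotated in the family of ribosomal protein L19e, had 18.26, 6.85 and 13.41 FPKM in AC and 0.31, 0.80 and 0.32 FPKM in BC, and was listed at 0 in 32E and 32S. It was the only one of the 24 with values in BC and none at the 32-cell stage.

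AT1G47395 (chr1:17382998-17383830, plus strand) had the steadiest level in AC. The annotation calls its product an uncharacterized protein of 50 residues. Its FPKM was 22.45, 23.08 and 19.39 in AC, against 0, 1.64 and 0 in BC, 0 in 32E, and 0, 0.26 and 0.20 in 32S. A near copy, AT1G47400, is the next gene on the same strand, 1876 bases away. The coding sequences of both are 153 bases long and differ at 17 bases, shown in capitals, and they are printed because the level of one gene depends on reads being told apart from the other.
AT1G47395: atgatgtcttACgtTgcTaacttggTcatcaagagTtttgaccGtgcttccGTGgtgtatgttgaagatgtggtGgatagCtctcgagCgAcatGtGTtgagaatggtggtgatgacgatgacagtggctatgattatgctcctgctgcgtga
AT1G47400: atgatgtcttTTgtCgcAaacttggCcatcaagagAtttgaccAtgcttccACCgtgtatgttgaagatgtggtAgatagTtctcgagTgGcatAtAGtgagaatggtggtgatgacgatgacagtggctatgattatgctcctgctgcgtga
AT1G47400 (chr1:17385707-17386485) had 9.59, 12.7 and 12.94 FPKM in AC, against 0, 7.16 and 0 in BC, 0 in all 32E libraries, and 35.23, 6.6 and 29.32 in 32S. The neighbour had its highest mean in the suspensor, where AT1G47395 was nearly absent, though its AC and 32S libraries overlapped. In limma's test it was higher in AC than in 32E (log2 difference 3.66, SE 0.76, adjusted p = 0.00185), and just under the threshold against BC (log2 difference 2.65, SE 0.76, adjusted p = 0.00998). The call against BC was lost under 16 of 20 alternative settings, among them leaving out any 1 AC library, with adjusted p up to 0.0475. The difference from 32S did not pass (log2 difference -0.68, SE 0.76, adjusted p = 0.443), and its 32S libraries ranged widely.

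The remaining genes included AT5G20560 (chr5:6955190-6956474, plus strand), annotated as a glycosyl hydrolase, with 13.97, 13.91 and 23.6 FPKM in AC, against 0 in BC and 32S, and 0, 0.65 and 0 in 32E. AT5G40320, with cysteine- and histidine-rich C1 domains, was at 12.8 ± 3.58 FPKM in AC, and AT3G62780, with a calcium-dependent lipid-binding domain, at 10.4 ± 3.37 (SD, n = 3 each). AT5G13770, a gene related to pentatricopeptide repeat proteins, which act on organelle RNA, was lowest at 10.24 ± 2.42 FPKM. The annotation called AT1G48710 and AT1G57810 pseudogenes, and they were at 12.98 ± 3.097 and 11.98 ± 3.779 FPKM in AC. AT1G48710 (chr1:18013632-18017690, plus strand) had 10.01, 12.73 and 16.19 FPKM in AC, against 0 in BC, 0.07, 0.11 and 0 in 32E, and 0, 0.10 and 0 in 32S. Its 4059 bases matched AT1G11265 with 99.4% identity, and 9 transcripts, AT1G11265 among them, shared at least 95% identity with it over at least 100 bases. AT1G11265 was listed at 0 in AC and BC, at 0.353 FPKM in 32E and at 1.25 FPKM in 32S. For such copies the estimated counts of RSEM divide reads by probability, and which copy gave the AC signal is uncertain.

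Each of the 24 genes had its 3 AC libraries above all 9 other libraries, which the choice made likely and which 13.3% of the 17060 genes tested also showed. Against 1 group at a time, 32.9% of tested genes had AC above BC in this way, 32.9% had AC above 32E and 37.4% had AC above 32S. In limma's fit on log2(FPKM + 1), all 24 were called higher in AC in each comparison (fold change of at least 2, adjusted p under 0.01), an outcome that the choice of genes fixed and that tests nothing. The share of all tested genes called higher in AC was 19.0% against BC, 14.3% against 32E and 26.4% against 32S. The median log2 difference of the 24 was 3.69 against BC, 3.44 against 32E and 3.72 against 32S, where the median over all tested genes was 0, 0.01 and 0. All these values rest on the contrasts that chose the genes. The 3 comparisons also share the AC libraries. All 24 passed the filter on low values, FPKM above 1 in at least 3 libraries, and they did so through their AC libraries.

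The traces outside AC were not spread evenly over the 3 groups. Of the 216 values outside AC, 138 (63.9%) were listed at 0 and 13 exceeded 1 FPKM. Values above 0 numbered 47 of 72 in 32E, 19 of 72 in 32S and 12 of 72 in BC. In 16 of the 24 genes 32E had the highest mean of the 3 groups, BC had it in 3 and 32S in 2. BC and 32E were equal in BAG2, and the other 2 genes were listed at 0 in these 3 groups. The FPKM of the 24 genes summed to 311.8 to 396.6 across AC libraries, against 0.88 to 6.26 in BC and, later, 6.75 to 11.33 in 32E and 2.68 to 3.41 in 32S. Low values above 0 were also more frequent in 32E over all genes. Between 0 and 1 FPKM there were 834 to 1595 genes per library in AC, against 1084 to 1203 in BC and, at the later stage, 2719 to 3777 in 32E and 1658 to 2340 in 32S. The part of this difference between libraries in the traces of the 24 genes was not tested.

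The 24 genes varied more among the AC libraries than most genes did. The median coefficient of variation (SD over mean) of the 24 was 28.8%, against 13.7% for all genes with at least 10 FPKM in AC and 19.3% for the 4734 genes within their range of levels. Within bins of AC level, 19 of the 24 were above the median of the other genes in their bin and 9 were above the upper quartile. The most variable were AT3G58340 (86.6%), BAG2 (46.7%) and AT4G16030 (44.6%), and the steadiest were AT1G47395 (9.12%), AT4G39320 (9.83%) and GRF11 (14.8%). AC replicate 3 gave the highest value for 13 of the 24 genes and the lowest for 1, while it was the highest for 35.7% of all genes in the same range of levels. AC replicate 2 was the lowest for 14 of the 24, and the share of all genes in the range with this order was not computed. It was the highest for 6 of the 24, against 38.6% of all genes in the range. A wider spread also marked the corresponding genes of 32E (28.2%, against 13.96% in the range) and 32S (21.7%, against 17.0%), but less those of BC (11.95%, against 11.46%). These values are descriptions without a test.

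**Figure D2:**
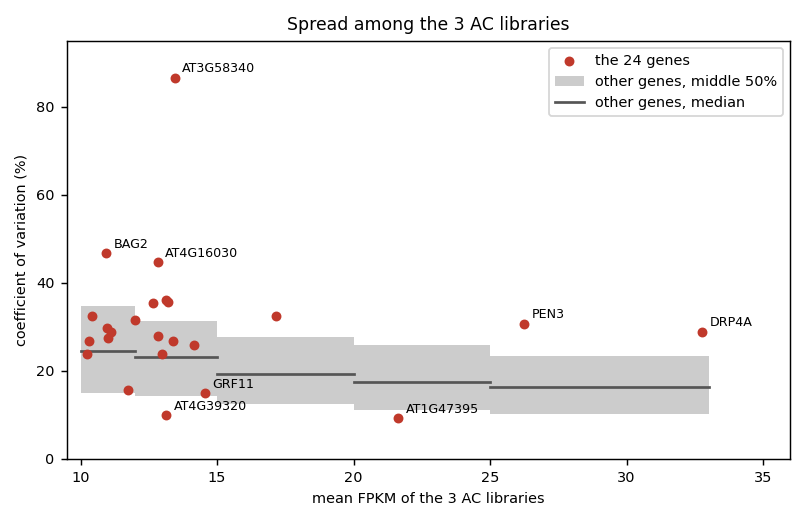
Coefficient of variation among the 3 AC libraries (vertical axis, %) by mean FPKM in AC (horizontal axis), with the 24 genes in red and, for the other genes with at least 10 FPKM in AC, the median (line) and middle 50% (band) in 5 bins of level. AT3G58340 stands highest at 86.6%, and 19 of the 24 lie above the line of their bin.

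Repeating the choice without replicate 1 of every group and reading the genes in the replicate left out gave a measure the choice had not used. It chose 26 genes, of which 15 met the same limits in the left-out libraries, and all 26 had AC above the other 3 groups there. Without replicate 2 it chose 37 genes, of which 11 met the limits and 35 had AC on top. Without replicate 3 it chose 22 genes, of which 11 met the limits and 21 had AC on top. The left-out AC value had a median of 12.3, 9.97 and 14.7 FPKM for replicates 1, 2 and 3, and the highest value elsewhere was 4.15, 26.4 and 10.8 FPKM. Among all genes with at least 10 FPKM in AC in the replicates used for choosing, AC was on top in the left-out libraries for 30.7%, 32.1% and 31.2%, and the limits were met by 0.303%, 0.153% and 0.191%, for replicates 1, 2 and 3. These comparison genes were picked on AC level alone, while the chosen genes were also below 1 FPKM in the other groups. The shares are thus not a like comparison and are given as descriptions. Only 9 of the 24 had every AC library at or above 10 FPKM, 12 had 2 and 3 had 1. Of the 4734 genes in the same range of AC levels, 3762 (79.5%) had every AC library there. The 24 lay mostly near the minimum, with 20 of them between 10 and 15 FPKM, so the shares are not a like comparison.

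The edges of the choice were crowded. Just inside the AC minimum lay AT5G13770, AT2G43445 and AT3G62780 at 10.24, 10.3 and 10.4 FPKM, and just outside lay AT2G40925, AT3G58480 and AT5G56430 at 9.77, 9.26 and 9.16 FPKM. Just inside the maximum elsewhere lay AT3G62780 with 0.953 FPKM in 32S, AT4G25160 with 0.880 in 32E and AT5G41400 with 0.877 in 32E. Just outside it lay AT1G69450, AT3G13010 and CIPK18, a kinase of the family that reads calcium through calcineurin B-like partners, with 1.047, 1.103 and 1.113 FPKM in 32S. These outsiders had 11.1, 14.3 and 17.4 FPKM in AC.

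Several of the 24 belong to families whose other members were measured to different extents. At or above 10 FPKM in all 4 groups were 10 of 12 other 14-3-3 genes, 7 of 12 dynamin-related genes and 4 of 6 BAG genes. The counts were 2 of 8 for SYP1 syntaxins, 1 of 7 for CDC20 and CCS52, 1 of 6 for relatives of GDU1 and 0 of 14 for those of PEN3. Below 1 FPKM in all groups were 3 SYP1 syntaxins, 3 relatives of GDU1 and 8 of PEN3. The families were listed after the 24 genes were known and are described without a test, apart from the calls given for CDC20.1 and CDC20.2. Among 9 SYP1 syntaxins, SYP112 held 3.87% of the summed FPKM in AC. KNOLLE (SYP111), the syntaxin of the cell plate, was at 151 ± 13.2 FPKM in AC, against 9.26 ± 8.55 in BC, 114 ± 27.0 in 32E and listed at 0 in 32S (SD, n = 3 each). SYP112 shared its highest group with KNOLLE but not its high level in 32E. SYP124 was at 20.4 ± 6.82 FPKM in AC, against 1.39 ± 2.21 in BC, 0.587 ± 0.849 in 32E and 2.94 ± 1.76 in 32S. SYP132, a syntaxin of general secretion, was at 33.9 to 67.8 FPKM in every group.

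In the family of CDC20 and the related CCS52 activators, CDC20.4 held 1.51% of the summed FPKM in AC. CDC20.1 was at 478 ± 75.4 FPKM in AC, against 203 ± 48.9 in BC, 234 ± 48.9 in 32E and 20.7 ± 11.3 in 32S, and CDC20.2 at 113 ± 26.0 FPKM in AC, against 33.1 ± 5.39 in BC, 58.6 ± 11.6 in 32E and 0.60 ± 0.529 in 32S (SD, n = 3 each). Both had their highest mean in AC, but neither approached 0 in BC. In limma's fit CDC20.1 was called higher in AC than in 32S, but not than in BC or 32E. CDC20.2 was called higher in AC than in BC and 32S, but not than in 32E. CDC20.3 (AT5G27080, chr5:9529753-9531081, minus strand) and CDC20.5 were listed at 0 in all 12 libraries. The coding sequences of CDC20.4 and CDC20.3 were 97.3% identical over 1326 aligned bases, with 36 differences. Coding bases 19 to 108 of CDC20.4 are printed with bases 10 to 99 of CDC20.3, their first ungapped stretch of 90 bases, to show how few letters separate a gene with an AC signal from a copy listed at 0, with the 3 differing bases in capitals.
CDC20.4: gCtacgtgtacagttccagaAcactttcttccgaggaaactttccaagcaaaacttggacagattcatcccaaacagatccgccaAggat
CDC20.3: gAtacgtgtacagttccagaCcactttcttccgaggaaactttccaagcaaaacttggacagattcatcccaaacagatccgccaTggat
As with AT1G48710, the division of reads between these copies is part of the value of CDC20.4.

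The dynamin family was measured broadly. Of the 12 relatives of DRP4A, 11 were at or above 10 FPKM in AC, all above DRP4A, and 7 were at or above 10 FPKM in every group. DL1 (DRP1A), the classical cell plate dynamin, was at 181 ± 12.4 FPKM in AC, against 167 ± 18.9 in BC, 138 ± 4.80 in 32E and 102 ± 13.1 in 32S (SD, n = 3 each). The exception was DRP4C, the closest paralogue of DRP4A, which did not exceed a mean of 0.673 FPKM in any group. Of 13 genes for 14-3-3 proteins, 10 were above GRF11 in AC and at or above 10 FPKM in all groups, led by GRF3 with 929 ± 50.5 FPKM in AC, while GRF12 and GRF13 were at most 0.0267 FPKM. GRF11 lay between these extremes and held 0.518% of the family's FPKM in AC. PEN3 differed from these, since it held 27.0% of the summed FPKM of 15 transporters of its type in AC. At 26.25 ± 8.04 FPKM in AC it lay below ABCG34 (35.7 ± 3.60) and level with ABCG31 (26.03 ± 1.92). Of the other 14 only ABCG34 and ABCG31 reached 10 FPKM in AC. GDU1 was second to GDU4, which was at 64.6 ± 8.33 FPKM in AC, against 44.4 ± 6.25 in BC, 29.8 ± 9.99 in 32E and 109 ± 20.01 in 32S. BAG2, of 7 family members, came in AC after BAG4, BAG6, BAG7 and BAG5, which were at or above 10 FPKM in every group.

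**Figure D3:**
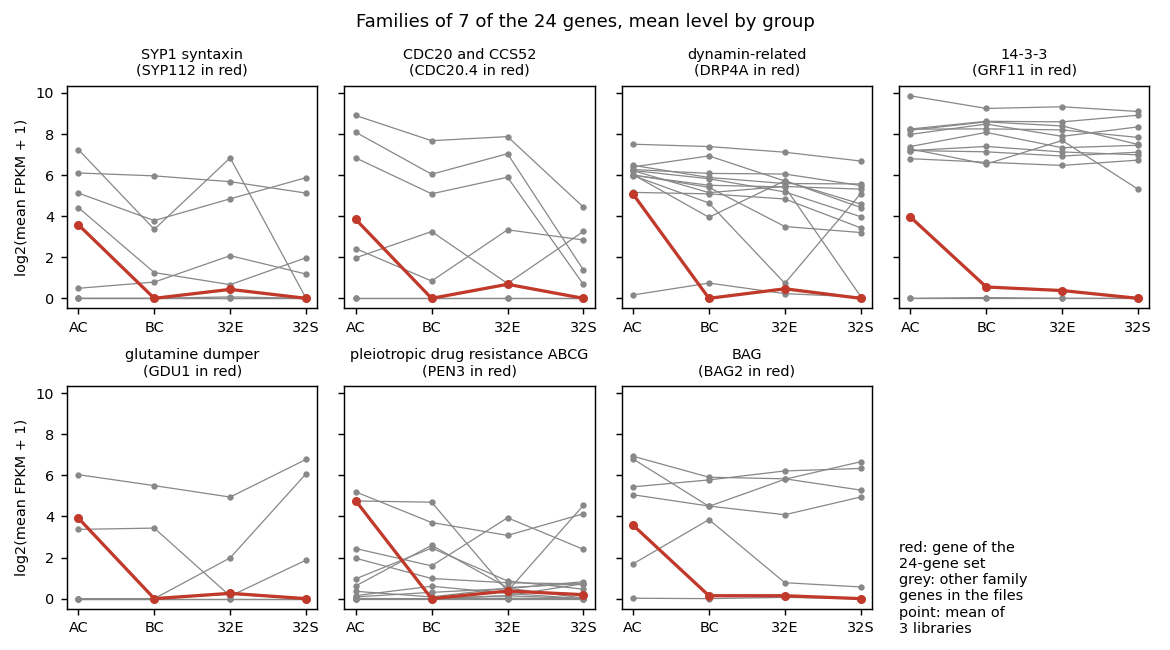
Mean level of 3 libraries, as log2(FPKM + 1), in AC, BC, 32E and 32S for 7 families, with the gene of the 24 in red and its relatives in grey. The red line starts at 10.9 to 32.8 FPKM in AC and lies below 1 FPKM in the other groups, while many grey lines stay above 10 FPKM throughout.

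Comparing each gene with its closest paralogue showed 2 common situations. A paralogue, taken as the best protein match with at least 40% identity over at least 50% of the protein, was found for 18 of the 22 protein-coding genes, and identity ran from 40.1% to 94.5%. None of these paralogues was itself among the 24. In 7 pairs the paralogue was below 1 FPKM in all 4 groups, namely DRP4C, ABCG35, BG5, GRF12, CDC20.3, AT5G45730 and BAG3. In 9 pairs it reached 10 FPKM in at least one group. The paralogue was above the AC gene in AC in 6 of the 18 pairs.

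Of the paralogues, 10 passed the filter and were compared between groups by limma. These tests were added after the paralogues had been seen. Against BC, 3 were higher and 1 lower in AC, against 19.0% and 18.4% of all tested genes. Against 32E, 3 were higher and none lower, against 14.3% and 13.1%, and AC had 3 higher and 2 lower against 32S, against 26.4% and 24.7%. At an unadjusted p under 0.05 in limma, 3 of the 10 were lower in AC than in 32E, namely DOF1, AT4G18330 and AT3G16780. The count of 3 called against 32E was 1 without replicate 2 of 32E and 1 with median-ratio scaling.

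The clearest contrast was between DOF2 and its paralogue DOF1, with 54.9% protein identity. DOF1 was listed at 0 in all AC libraries, had 0.05, 0 and 1.57 FPKM in BC and 0.26, 2.5 and 1.75 in 32E, and reached 201.66, 253.22 and 217.3 FPKM in 32S. It was lower in AC than in 32S (log2 difference -7.81, SE 0.41, adjusted p = 1.2e-08 in limma's test), while the pair's other gene, DOF2, was at 11.73 FPKM in AC and at most 0.29 FPKM in 32S libraries. AT2G18720 and AT4G18330, with 82.9% identity, divided the first 2 cells. AT4G18330 had 0.06, 0.04 and 0.04 FPKM in AC, against 9.71, 9.81 and 11.27 in BC, 1.23, 0.91 and 0.13 in 32E and 0.24, 0 and 0.13 in 32S. It was lower in AC than in BC (log2 difference -3.43, SE 0.23, adjusted p = 3.3e-07), where AT2G18720 was listed at 0. AT1G63840, the paralogue of AT5G41400, was at 20.11 ± 1.82 FPKM in AC, against 3.07 ± 3.33 in BC, 3.94 ± 1.86 in 32E and 45.3 ± 22.2 in 32S (SD, n = 3 each), higher in AC than in BC (log2 difference 2.77, SE 0.59, adjusted p = 0.00168) and than in 32E (log2 difference 2.17, SE 0.59, adjusted p = 0.0095). The call against 32E was lost under 12 of 20 alternative settings, with adjusted p up to 0.0651. AT1G63840 was also measured in the suspensor, where AT5G41400 was at most 0.60 FPKM.

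**Figure D4:**
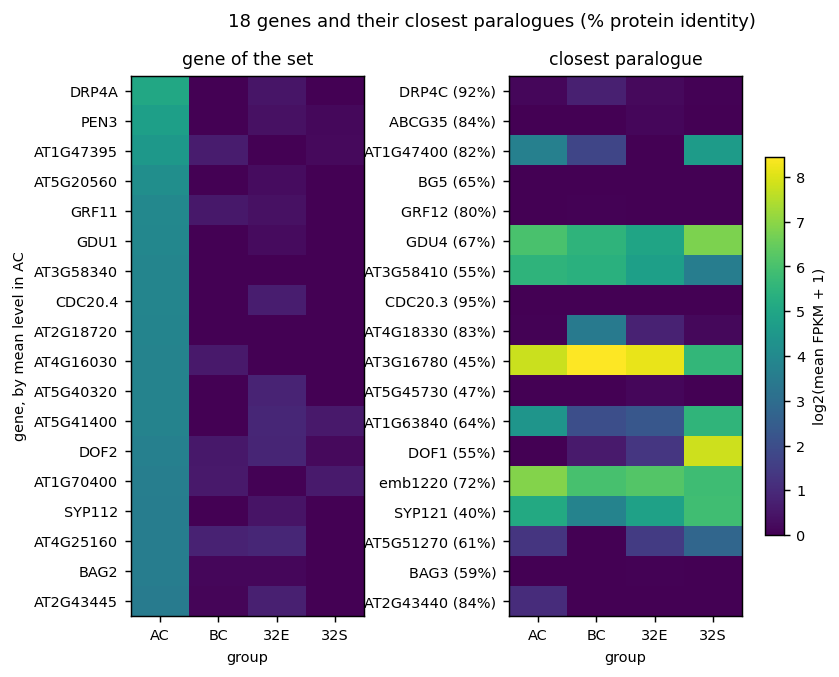
Mean levels in AC, BC, 32E and 32S, as log2(FPKM + 1) in colour, for 18 of the 24 genes (left) and their closest paralogues (right, with protein identity in percent). The left panel is bright in AC only, while the right panel holds 7 dark rows and 9 paralogues at or above 10 FPKM in at least one group.

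Gene structure ranged from single exons to 10 exons in AT4G25160 and 8 in PEN3. Of the 22 genes that encode a protein, 8 (36.4%) had no intron, against 9.96% of 4649 genes in the same range of AC levels and 20.4% of all 26712 protein-coding genes matched. Their median number of exons was 2, against 6 in the range and 4 over all, and the median transcript length was 1205 bases, against 1816 in the range and 1506 over all. The share of pseudogenes, 2 of 24 (8.33%), compared with 0.405% in the range and 12.3% of all matched genes. GC content did not stand apart, with a median of 41.1% against 41.7%. Genes without a symbol in TAIR10.1 made up 16 of the 24 (66.7%), against 54.9% of the other genes with at least 10 FPKM in AC.

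The genes were scattered over all chromosomes, with 7 on chromosome 1, 3 on chromosome 2, 3 on chromosome 3, 5 on chromosome 4 and 6 on chromosome 5. No 2 were neighbours. The closest pair, AT4G25160 and AT4G25330, was 50237 bases and 18 genes apart. Of the 48 flanking genes in the tables, 21 (43.8%) were at or above 10 FPKM in AC, where 31.0% of all genes were, and 17 were below 1 FPKM. The flank of AT3G58340, AT3G58330, was at 391 FPKM in AC, against 1205 in BC, 1.36 in 32E and 293 in 32S, and that of AT1G57810, the DNA methylation gene VIM1, at 273 FPKM in AC, against 169 in BC, 203 in 32E and 101 in 32S. No flanking gene met the limits that chose the 24. AT5G20550, next to AT5G20560 on the opposite strand, was below the minimum at 6.84 FPKM in AC, and it was listed at 0 in BC and 32S and at 0.0733 FPKM in 32E. Overlaps with other genes were few. AT5G13770 shared 218 bases with AT5G13780 on the opposite strand, which was at 127 FPKM in AC, against 163 in BC, 204 in 32E and 90.6 in 32S. AT4G25160 and AT2G18720 overlapped other genes by 124 and 87 bases.

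The promoters of the 24 were searched for 9 short motifs, on both strands, from 250 bases before to 50 bases after the annotated start, for the 22 protein-coding genes and for 26711 genes in all. The W-box core TTGAC, the binding letters of WRKY factors, was in 14 of 22 (63.6%), against 50.5% of all promoters. The letters TATAAA were also in 14 (63.6%), against 52.6%. The core AACGG of the element of mitosis-specific genes was in 9 (40.9%), against 24.7%, and the core CCGAC of the dehydration-responsive element in 8 (36.4%), against 14.97%. The telo-box AAACCCT and the site II element TGGGCC were in 3 each (13.6%), against 9.97% and 15.7% of all promoters. Among the 9793 promoters of other genes with at least 10 FPKM in AC, the shares were 49.98% for TTGAC, 49.7% for TATAAA, 29.7% for AACGG, 17.8% for CCGAC, 12.5% for the telo-box and 27.0% for site II. The G-box CACGTG was in 1 (4.55%, against 7.79%), and the GCC-box GCCGCC and the CGCG box CGCGT were in none, against 2.55% and 8.75% of all promoters. These shares are descriptions, and no motif was shared by all 22. For DRP4A, CDC20.4 and AT3G58340 the annotated transcript was as long as the coding sequence (906, 1335 and 978 bases). Their annotated start is thus the first coding base, and where transcription begins is not given. The stretch searched can include transcribed bases in such genes.

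The 250 bases before the annotated start are printed for 3 genes. They are DRP4A, the gene with the highest level, SYP112, a gene of membrane fusion with several W-box cores, and DOF2, the only transcription factor. For DRP4A this start is the first coding base, so its stretch can include transcribed bases. Capitals mark matches to these motifs on either strand, and the sequences are from RefSeq TAIR10.1, on the plus strand, at chr1:22299547-22299796, chr2:7941528-7941777 and chr3:7474294-7474543.
DRP4A: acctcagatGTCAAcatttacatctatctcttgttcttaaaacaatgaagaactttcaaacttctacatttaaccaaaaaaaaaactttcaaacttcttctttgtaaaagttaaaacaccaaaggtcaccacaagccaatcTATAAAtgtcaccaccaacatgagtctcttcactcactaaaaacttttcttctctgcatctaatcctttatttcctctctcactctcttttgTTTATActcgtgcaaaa
SYP112: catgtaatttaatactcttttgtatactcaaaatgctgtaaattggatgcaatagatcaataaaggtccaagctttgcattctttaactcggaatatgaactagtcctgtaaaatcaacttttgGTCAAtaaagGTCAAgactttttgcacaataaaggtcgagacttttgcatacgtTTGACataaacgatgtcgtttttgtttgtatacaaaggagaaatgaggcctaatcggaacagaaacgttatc
DOF2: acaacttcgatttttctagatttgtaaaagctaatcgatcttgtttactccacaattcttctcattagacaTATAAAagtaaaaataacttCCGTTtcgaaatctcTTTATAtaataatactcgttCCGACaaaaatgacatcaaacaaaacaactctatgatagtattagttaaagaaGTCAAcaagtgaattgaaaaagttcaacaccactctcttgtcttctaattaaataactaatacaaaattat
The matches upstream of DRP4A are a W-box core and TATAAA on both strands. Those of SYP112 are 3 W-box cores. DOF2 has TATAAA on both strands, 1 core each of the mitosis element and the dehydration element, and a W-box core.

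Among 13 lists covering 208 genes, only PEN3 of the 24 appeared, in the list of immune and wound response genes. Of the 41 genes in that list 28 were tested. In AC, 11 were higher and 1 lower than in BC, 3 were higher and 3 lower than in 32E, and 4 were higher and 10 lower than in 32S. Of all tested genes, 19.0% were higher and 18.4% lower in AC than in BC, 14.3% and 13.1% than in 32E, and 26.4% and 24.7% than in 32S. The median log2 difference of the tested genes was 1.38, -0.40 and -0.54 in these comparisons, against 0, 0.01 and 0 for all tested genes. PEN3 was in each count of higher genes. The 3 genes lower in AC than in 32E became 8 without replicate 1 of 32E, 2 without replicate 2 of AC or of BC, and 1 without replicate 1 or 3 of AC, 1 or 3 of BC, 2 or 3 of 32E, or 3 of 32S. The transcription factor gene WRKY22 differed from PEN3 in its reach, with 67.7 ± 5.403 FPKM in AC, against 0.390 ± 0.676 in BC, 108 ± 38.1 in 32E and 86.5 ± 18.02 in 32S (SD, n = 3 each), a log2 difference of 5.73 between AC and BC.

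None of the 24 was in the mitosis list, in which all 21 genes were tested. In AC, 15 of them were higher than in BC, 9 than in 32E and 21 than in 32S, and none was lower in these comparisons, also at an unadjusted p under 0.05 in limma. The share of all tested genes higher in AC was 19.0%, 14.3% and 26.4% in these comparisons, for this list and the next. The B-type cyclin genes CYCB1;1 and CYCB2;1, which drive entry into mitosis, show the range. CYCB1;1 was at 350.5 ± 52.2 FPKM in AC, against 30.3 ± 4.0004 in BC, 89.0 ± 22.0 in 32E and 0.153 ± 0.117 in 32S (SD, n = 3 each). CYCB2;1 was at 23.4 ± 3.99 FPKM in AC, listed at 0 in BC and 32S, and at 6.27 ± 1.89 in 32E, which kept it outside the 24. Of the 24 meiosis genes 21 were tested, and in AC 6 were higher than in BC, 6 than in 32E and 11 than in 32S, with none lower. At an unadjusted p under 0.05 in limma, 2 meiosis genes, MSH4 and PRD1, were lower in AC than in BC. Without replicate 2 of 32E the count higher than in 32E was 3. These lists were drawn up with earlier results of the same data known.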

How the data were processed

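Libraries were grouped by their labels into AC, BC, 32E and 32S (3 each). The authors trimmed reads with Cutadapt, mapped them with Bowtie 2 to TAIR10 and deposited FPKM values per gene estimated by RSEM, which divides multi-mapped reads; the submitters' processing notes name TopHat2 2.1.1 and RSEM. The paper gives the depth of each library, but the tables hold no counts per gene. Counting error is thus unknown, and p-values measure only the spread between libraries.

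Here log2(FPKM + 1) was fitted for all 4 groups in 1 model with limma 3.58.1 (R 4.3.3) with a trended prior. The 17060 genes that exceeded 1 FPKM in 3 or more libraries entered. A call needed an adjusted p (Benjamini-Hochberg) under 0.01 together with a log2 difference of at least 1. Fold changes on this scale understate the change of low genes. The fit was tested on simulated data, which had normal noise of equal size in every group and no floor of zeros. That test thus says nothing about genes listed at 0 in a whole group. Genes were matched to RefSeq TAIR10.1 (31912 of 32399 IDs, 24 of 24 members), and paralogues were found with BLAST+ 2.17.0. Python 3.11.15, pandas 2.3.3, numpy 2.4.6, Biopython 1.88 and matplotlib 3.10.9 were used.

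Genes were named by a rule: the 12 with the highest AC mean, those in a list or a transcription factor family, those at the thresholds, the 3 most and 3 least variable, and those with a paralogue of at least 80% identity. Other members, families, flanks and paralogues were named after their values were seen. The members and lists were chosen with earlier results of these data known. Of 218 listed genes, 10 whose symbol differed from the reference were left out.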

Additional observations from a re-analysis of the deposited data

How the results depend on the processing

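Of 548 alternative values, 506 kept their direction and side of the threshold for a single gene, or stayed within 1.5 times for a count or ratio. Direction was compared only for the differences of single genes, and none of these reversed. The balance of higher and lower calls did turn under some settings. With median-ratio scaling, 2059 genes were higher and 2533 lower in AC than in 32E, from 2448 and 2231. Against 32S the counts were 3939 and 4765, from 4500 and 4209. The 506 also include the alternatives for calls of the 24 genes. All 24 genes were called in 59 of 60 alternatives, which the choice of genes fixed and which is no sign of stability, and with a pseudocount of 0.1 AT4G25160 lost its call against 32E, leaving 23. The number of genes meeting the rule was 5 when every AC library had to reach 10 FPKM and every other library to stay below 1, 106 with an AC minimum of 5, 3 with an AC minimum of 20, 13 with a maximum of 0.5 elsewhere, 46 with a maximum of 2, and 37 when chosen without replicate 2 of every group. Leaving out 1 library gave 20 to 28. Genes called against 32E numbered 2852 with a pseudocount of 5, against 4679. Leaving out 1 library gave 5717 to 6490 genes called against BC, 3992 to 4835 against 32E and 8214 to 8694 against 32S. The spread of the 24 in AC was 2.097 times that of other genes, 1.27 times within bins of level, and 1.78 to 2.73 times without 1 AC library. These last settings and those of paralogues and lists were chosen after seeing the data. Paralogues called against 32E numbered 1 with median-ratio scaling, against 3, and 1 to 3 without 1 library. Immune genes called against 32E numbered 2 with a pseudocount of 5, against 6, and against 32S 9 with the filter at 5 FPKM, against 14. All 28 lost calls of single genes were those of AT1G47400 against BC and AT1G63840 against 32E. Median-ratio scaling moved the median of all genes against 32S by -0.13 on the log2 scale. With the replicate number as a block, 6265 genes were called against BC, 4545 against 32E and 8617 against 32S, and all 24 members each time. Deviations of same-numbered libraries correlated at -0.125 to 0.066, so the numbers were not taken as pairing.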

Other observations

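The counts of 6 further lists that held none of the 24 genes are set beside the shares of all tested genes called higher and lower in AC, which were 19.0% and 18.4% against BC, 14.3% and 13.1% against 32E, and 26.4% and 24.7% against 32S. Counts near these shares say nothing particular about a list. Of 16 cuticle and wax genes tested, 8 were higher in AC than in BC, 10 were lower than in 32E, and 3 were higher and 6 lower than in 32S. Of 18 embryo proper patterning genes, 4 were higher and 4 lower in AC than in BC, 12 were lower than in 32E, and 6 were higher and 5 lower than in 32S. Of 10 ROP signalling genes, 4 were higher and 1 lower in AC than in BC, 3 were lower than in 32E, and 4 were higher and 1 lower than in 32S. Of 10 cold and dehydration genes, 1 was higher in AC than in BC, 2 were higher than in 32E, and 1 was higher and 4 lower than in 32S. Of 7 housekeeping genes, 1 was higher in AC than in BC, 1 than in 32E and 3 than in 32S. Of 8 basal cell and suspensor genes, 4 were lower in AC than in BC, 3 were higher and 2 lower than in 32E, and 2 were higher and 5 lower than in 32S.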
